A study of Mus musculus with 6 samples.

Results

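XAF1 and the inhibitor of apoptosis (IAP) proteins were examined as a set of 7 genes in naive CD8 T cells that have or lack the integrin chain CD103. The members were Xaf1, Xiap, Birc2, Birc3, Birc6, Diablo and Htra2, found by gene symbol among 55450 genes in the count table. Each symbol matched 1 row, and all 7 were among the 13470 genes with enough counts to be tested. The members were chosen by the measured CPM of Xaf1 in this same contrast, which was already known to be higher in the CD103-deficient libraries, and the others were added as its family. No threshold was set. Their differences between the groups are therefore given as a description, with a standard error and no p-value.

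Polyadenylated RNA was sequenced from mouse lymph node CD8 T cells, sorted as lacking the surface proteins Ly6C and CXCR3, in 3 WT libraries (C57BL/6) and 3 CD103KO libraries (Itgae-/-). Itgae encodes CD103, and no other allele or treatment is named for either group. The age and sex of the mice, the number of mice in a library and the making of the Itgae allele were not given in the sources used here. No library is tied by its labels to an animal of its own. P-values therefore reflect only the spread among these samples, which may be technical in part or, within CD103KO, in full.

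IAP proteins restrain cell death. XIAP binds activated caspases and blocks them, while cIAP1 and cIAP2, encoded by Birc2 and Birc3, are ubiquitin ligases that act with TRAF adaptors below TNF family receptors and keep non-canonical NF-kappa B signalling low. BIRC6 is a very large ubiquitin-conjugating IAP protein. DIABLO (SMAC) and HTRA2 (OMI) are mitochondrial proteins that bind IAP proteins and free caspases once they reach the cytosol. XAF1, the XIAP-associated factor, is the product of an interferon-inducible gene and is known for opposing XIAP. In T cells these genes bear on how long a resting cell survives and how it responds to TNF family signals.

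Before the results, several properties of the libraries need stating. Total expected counts were 68292475 to 94347034 per library. Itgae, the targeted gene, was at 459.9 to 495 CPM (counts scaled to library size) in WT and at 61.1 to 67.9 CPM in CD103KO. Xist, the RNA of the inactive X chromosome, was at 66.9 and 79.7 CPM in WT replicates 1 and 2, in which Ddx3y of the Y chromosome had 0 counts. The other 4 libraries had 0 to 2 counts of Xist but Ddx3y levels of 47.8 to 56.2 CPM. The spread among the WT libraries is thus not technical alone. Because the Xist reads differ, the values of Xaf1, Xiap and Birc6 are also given with a term for Xist reads. So are the medians of the pathway lists and of the B cell marker list. With the term, the CD103KO libraries are set against WT replicate 3. The CD8 chains Cd8a and Cd8b1 averaged 1452 and 1722 CPM in WT against 1479 and 1726 CPM in CD103KO. The 16 genes of a B cell marker list had log2 fold changes from 0.01 (Cd79b) to 2.58 (Fcer2a). For 14 of them the groups did not overlap, a property of 14.2% of all tested genes (6.82% upward). The 16 markers summed to 47.1 to 55.8 CPM in WT against 65.0 to 77.7 CPM in CD103KO, and none of them was at 0. Of these, Fcer2a, Cd79a and Ms4a1 rose (edgeR quasi-likelihood test, adjusted p = 0.00589, 0.00592 and 0.0268). That is 3 of 16, where 0.141% of all tested genes were called higher. The median log2 fold change of the list was 1.81, and 1.44 with the term for Xist reads. The part of the B cell genes in the results was not tested. In bulk samples fewer cells of a type and less RNA per cell cannot be told apart. Of 12 myeloid and dendritic cell markers, 9 were tested and 0 passed with edgeR, 0 at an unadjusted p under 0.05 and 0 with DESeq2. The 12 summed to 44.3 to 53.1 CPM in WT against 45.8 to 48.7 CPM in CD103KO, with Siglech at 0 in all libraries.

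Sequence around the start of 3 members is shown: Xaf1 because of its levels below, Birc2 because it holds the same short motif, and Birc3 as the adjacent cIAP gene without that motif. The windows come from RefSeq on GRCm38.p6, which held 250 bases before and 50 after a start site for 6 of the 7 members (9 windows). The stretches are chr11:72301509-72301658 on the plus strand for Xaf1, chr9:7836777-7836866 on the minus strand for the downstream of the Birc2 starts, and chr9:7873141-7873290 on the minus strand for Birc3. Capitals mark matches to GAAANGAAA on either strand.
Xaf1: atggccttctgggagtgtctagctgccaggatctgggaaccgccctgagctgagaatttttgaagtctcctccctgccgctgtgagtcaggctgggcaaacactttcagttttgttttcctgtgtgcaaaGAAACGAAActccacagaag
Birc2: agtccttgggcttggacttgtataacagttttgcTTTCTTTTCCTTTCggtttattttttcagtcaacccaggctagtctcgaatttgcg
Birc3: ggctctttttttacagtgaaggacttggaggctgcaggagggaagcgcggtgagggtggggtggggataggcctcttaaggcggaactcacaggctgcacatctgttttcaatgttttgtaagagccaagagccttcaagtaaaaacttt

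The core of the interferon-stimulated response element, GAAA repeated after a spacer of 2 bases, searched on both strands, was in 0 of the 9 windows of the members and in 3.44% of 32851 windows of all genes. With a spacer shorter by a base, GAAANGAAA, a form chosen after the letters of Xaf1 were seen, there was a match in Xaf1 from base 11 to base 19 after the start, counting the first transcribed base as 1. Birc2 held overlapping matches from 26 to 13 bases before its downstream start. That form was in 3.17% of all windows. The interferon-gamma activated site TTCNNNGAA (8.30% of all windows) and an NF-kappa B form made of GGG, 2 bases of any kind and TTTCC (1.63%), both searched on both strands, were in 0 of the 9, which says only that these letters are not in these windows.

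Xaf1 (ENSMUSG00000040483.15, chromosome 11, 72301629 to 72313733, GRCm38, plus strand) stood at 24.3, 21.3 and 31.1 CPM in the WT libraries, given here and below in the order of replicates 1, 2 and 3. In the CD103KO libraries it stood at 128, 169.7 and 167 CPM. Every CD103KO library was above every WT library, and the lowest CD103KO library was 4.12-fold above the highest WT library. The means were 25.6 ± 5.03 CPM (SD, n = 3) and 155 ± 23.3 CPM (SD, n = 3), a ratio of 6.06 and a log2 fold change of 2.60 (SE 0.15). These levels rest on 1822 to 2474 counts in WT and 9416 to 12644 counts in CD103KO, all whole numbers in the deposited table. Within each group Xaf1 varied more than any other member, with a coefficient of variation of 19.6% in WT and 15.0% in CD103KO. Birc6 came next, at 18.7% and 11.4%. By log2 fold change it ranked 4 among 10767 tested genes with a mean of at least 1 CPM. With the term for Xist reads its log2 fold change was 2.32. The annotation of Xaf1 overlaps no other gene, and its transcripts matched those of other genes at 90% identity over at most 214 bases.

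**Figure D1:**
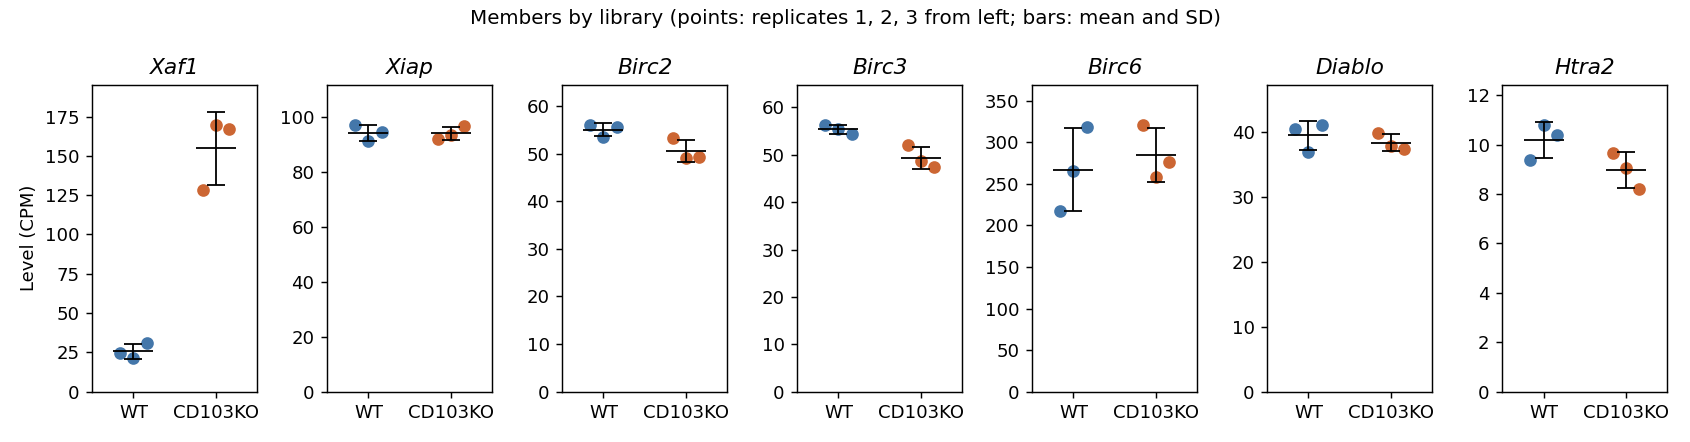
Level in CPM of each member in the 3 WT and 3 CD103KO libraries, each panel from 0 on its own scale, with points for replicates 1 to 3 from left to right and bars for mean and SD. Xaf1 lies at 21.3 to 31.1 CPM in WT against 128 to 169.7 CPM in CD103KO, whereas Xiap, Birc6, Diablo and Htra2 overlap between the groups and Birc2 and Birc3 are slightly lower in CD103KO.

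Of the 7 members, Xaf1 alone was called (edgeR, adjusted p at most 0.05), where 0.223% of all tested genes were (0.141% higher and 0.0817% lower in CD103KO), and DESeq2 likewise called it where 0.822% of its tested genes were. Since this contrast chose the members, nothing is read from these counts. Groups did not overlap for 3 members, Xaf1 upward and Birc2 and Birc3 downward, a property of 14.2% of tested genes (6.82% upward and 7.36% downward), and nothing is read from that count either. The other 6 members had log2 fold changes from -0.18 to 0.09, against a median of -0.0025 over all tested genes.

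Xiap (ENSMUSG00000025860.15, chromosome X, 42059679 to 42109656, plus strand), the caspase inhibitor that XAF1 is known to bind, had the smallest range of the members over the 6 libraries together. Its levels were 97.2, 91.3 and 94.6 CPM in WT against 92.0, 93.7 and 96.8 CPM in CD103KO, from 6383 to 8740 counts. The groups overlapped almost fully. The log2 fold change was -0.0028 (SE 0.04). Although the gene is X-linked, the WT libraries with Xist reads (97.2 and 91.3 CPM) lay on either side of the WT library without them (94.6 CPM). With the term for Xist reads the log2 fold change was -0.01.

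Birc2 and Birc3, the cIAP genes, lie next to each other on chromosome 9 with 11.6 kb between them, both on the minus strand. Birc2 (ENSMUSG00000057367.12, 7818227 to 7837064) was at 56.0, 53.4 and 55.6 CPM in WT against 53.2, 49.0 and 49.3 CPM in CD103KO. Birc3 (ENSMUSG00000032000.17, 7848699 to 7873186) was at 56.3, 55.5 and 54.3 CPM in WT against 52.0, 48.7 and 47.4 CPM in CD103KO. In each gene the CD103KO libraries were all below the WT libraries, CD103KO replicate 1 being the nearest to WT. The log2 fold changes were -0.12 (SE 0.05) for Birc2 and -0.17 (SE 0.05) for Birc3, and both genes had expected counts that were not whole in all 6 libraries, so that part of their reads was shared out by the authors' counting. Summed, which removes any sharing between the pair, they were at 110.4 ± 1.71 CPM in WT against 99.9 ± 4.64 CPM in CD103KO (SD, n = 3). The ratio of Birc3 to Birc2 per length was 0.921 ± 0.0282 in WT and 0.894 ± 0.0149 in CD103KO, with overlapping libraries. That ratio was 1.49 and 1.45 with mean transcript lengths and was also above 1 with the longest, so whether Birc3 or Birc2 was the higher depended on the length used.

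Birc6 (ENSMUSG00000024073.16, chromosome 17, 74528295 to 74703356, plus strand) had the widest spread within WT among the members other than Xaf1. Its levels were 218, 265 and 318 CPM in WT against 321, 258 and 276 CPM in CD103KO. WT replicate 3 and CD103KO replicate 1 were the high libraries and WT replicate 1 the low one, so the spread did not follow genotype. The log2 fold change was 0.09 (SE 0.13), it was -0.16 with the term for Xist reads, and it was 0.24 without WT replicate 3. Birc6 has a longest annotated transcript of 15768 bases. The 189 tested genes with a longest transcript over 10 kb and a mean of at least 10 CPM had medians of -0.06, 0.03 and -0.02 in WT and 0.05, 0.03 and -0.03 in CD103KO, in log2 relative to the mean of the 6 libraries. On the same scale Birc6 was at -0.32, -0.05 and 0.22 in WT and 0.23, -0.09 and 0.01 in CD103KO. A median over many genes varies less than a single gene, so nothing is read from the sizes, and the part of transcript length in the spread was not tested.

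Diablo (ENSMUSG00000029433.16, chromosome 5, 123509765 to 123524176, minus strand) was at 40.5, 36.9 and 41.1 CPM in WT against 39.8, 37.9 and 37.4 CPM in CD103KO. The groups overlapped, and the log2 fold change was -0.04 (SE 0.06). Htra2 (ENSMUSG00000068329.12, chromosome 6, 83051266 to 83055273, minus strand), which encodes a mitochondrial serine protease, was the least abundant member at 9.39, 10.8 and 10.4 CPM in WT against 9.66, 9.07 and 8.20 CPM in CD103KO. Its groups overlapped through CD103KO replicate 1 and WT replicate 1, and the log2 fold change was -0.18 (SE 0.09). Annotations of several genes overlap Diablo and Htra2. For Htra2 these are Aup1 (85.7 to 105 CPM over the 6 libraries, log2 fold change -0.04) and Loxl3 on the opposite strand. The expected counts of Htra2 were whole numbers in all 6 libraries. With the strand setting of the counting not given in the sources used here, reads of Htra2 and Aup1 may not be fully separated, which was not tested.

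Levels can be compared between members only per length, and counts per kilobase of annotated exons, scaled to the same total in every library, were used for that. In WT the order was Birc2 (31.2 ± 0.747), Birc3 (28.8 ± 1.22), Birc6 (26.9 ± 4.45), Xiap (25.9 ± 0.91), Diablo (16.6 ± 0.663), Xaf1 (14.1 ± 2.37) and Htra2 (8.99 ± 0.682; SD, n = 3 each). Birc3, Birc6 and Xiap overlapped in that order, as did Diablo and Xaf1. Birc2 and Birc3 did not, nor did Xiap and Diablo, nor Xaf1 and Htra2. In CD103KO Xaf1 moved from rank 6 to rank 1, at 71.2, 94.2 and 92.6 against 26.0 to 32.4 for Birc6, the next member. Below it Birc6, Birc2, Xiap and Birc3 lay at means of 28.8, 28.7, 25.9 and 25.6, followed by Diablo (16.2) and Htra2 (7.93). Birc6 and Birc2 overlapped, as did Xiap and Birc3, while Birc2 and Xiap did not. With the mean or the longest transcript length in place of the exon union, the order among Birc2, Birc3, Birc6 and Xiap changed, while Xaf1 still ranked 6 in WT and 1 in CD103KO, and Htra2 ranked 7 in both groups.

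**Figure D2:**
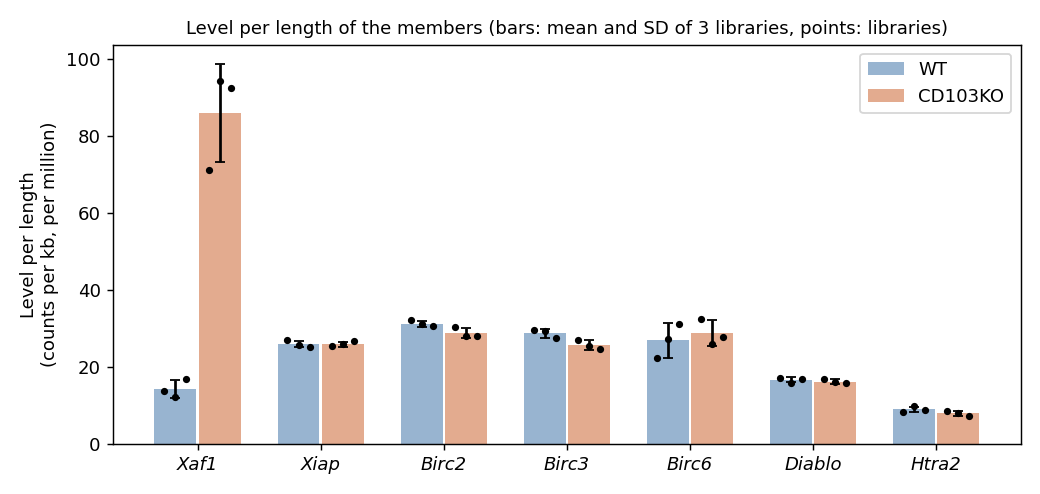
Level per length of each member (counts per kilobase of exon union, scaled to the same total in every library) in WT and CD103KO, with bars for the mean and SD of 3 libraries and points for the libraries. Xaf1 goes from 14.1 in WT, between Diablo and Htra2, to 86.0 in CD103KO, above all other members.

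Ratios of antagonists to IAP genes, as RNA per length, differed between the groups for Xaf1 and overlapped for the mitochondrial antagonists. The ratio of Xaf1 to Xiap was 0.505, 0.471 and 0.664 in WT and 2.81, 3.66 and 3.49 in CD103KO, a mean of 0.547 against 3.32. Xiap RNA thus exceeded Xaf1 RNA in every WT library and was below it in every CD103KO library. The ratio of Xaf1 to the sum of Xiap, Birc2 and Birc3 was 0.165 ± 0.032 in WT and 1.08 ± 0.185 in CD103KO. The ratio of Diablo plus Htra2 to the same sum was 0.299 ± 0.00976 in WT and 0.301 ± 0.00871 in CD103KO, with overlapping libraries. These ratios restate the member levels above, and protein was not measured.

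Xaf1 lies 0.777 Mb from Itgae on chromosome 11, and its neighbours were described to see how far a difference extended along the chromosome. Its nearest tested genes were Med31, a Mediator subunit gene 86.0 kb away, and Mybbp1a, a nucleolar protein gene 128 kb away. Med31 was at 5.96 ± 0.427 CPM in WT against 5.28 ± 0.303 CPM in CD103KO, which did not pass (log2 fold change -0.17; edgeR, adjusted p = 0.641). Mybbp1a was at 292 ± 3.78 and 307 ± 16.9 CPM, which did not pass either (log2 fold change 0.07; edgeR, adjusted p = 0.695). Within 0.5 Mb of Xaf1, 0 of 11 tested genes passed with edgeR, with 1 at an unadjusted p under 0.05, and DESeq2 called 0. Within 1 Mb, 1 of 20 passed, Itgae itself, and 5 had an unadjusted p under 0.05, where 8.73% of all tested genes did. Apart from Itgae, the log2 fold changes of these neighbours ran from -1.19 (Haspin, inside the span of Itgae; adjusted p = 0.0992 with edgeR, called by DESeq2) to 0.57 (Pimreg), with a median of -0.04. Besides Xaf1, 5 of 47 tested genes within 2 Mb were called. Within 5 Mb, 10 of 149 were called with Xaf1 counted among them. Over all tested genes the share called was 0.223%. Loss of CD103 and other differences in DNA linked to the Itgae allele cannot be told apart for Xaf1 in this design. The nearest tested genes of the other members, 10 that are not members themselves, had log2 fold changes from -0.13 to 0.14, and 0 of them passed with edgeR.

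**Figure D3:**
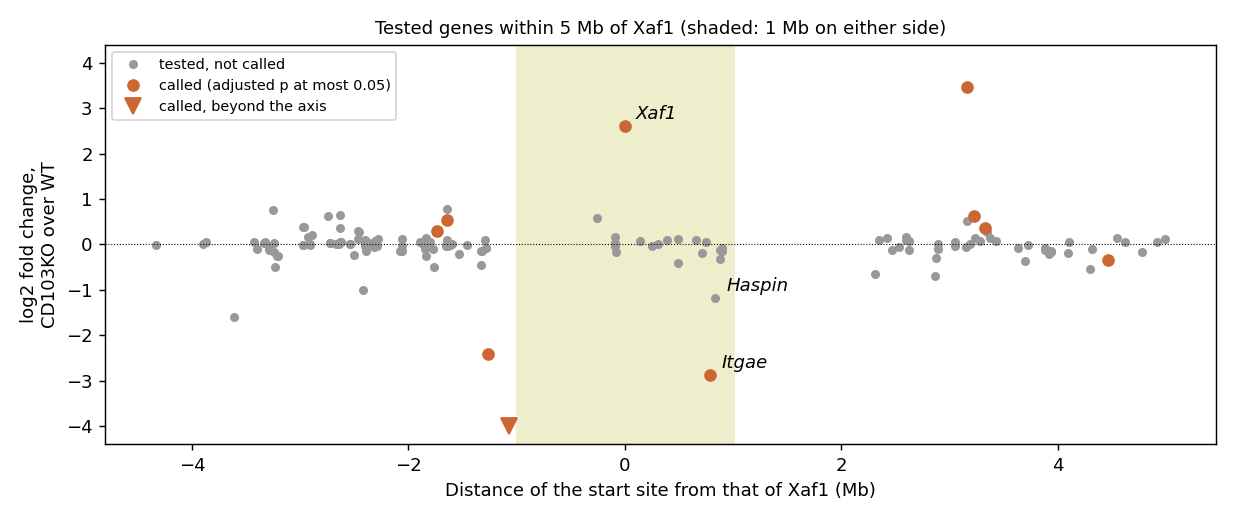
Log2 fold change of each tested gene within 5 Mb of Xaf1 against the distance of its start site from that of Xaf1, with called genes in orange, a triangle for a called gene (Nlrp1b) beyond the axis, and the 1 Mb on either side shaded. In the shaded span Xaf1 (2.60) and Itgae (-2.88) are called, and the other genes lie between -1.19 (Haspin) and 0.57 (Pimreg).

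Interferon signalling and induced genes were examined with Xaf1, itself interferon-inducible. Of 30 tested genes, 25 had a log2 fold change above 0, and the median was 0.26, against -0.0025 over all tested genes, but 0 passed with edgeR. With an unadjusted p under 0.05 there were 11 higher genes and 1 lower gene, where 4.53% and 4.2% of all tested genes were. DESeq2 called 3, Eif2ak2, Mx2 and Ifi44. Eif2ak2, the RNA-activated kinase PKR, was at 40.9 ± 3.05 CPM in WT against 50.1 ± 2.88 CPM in CD103KO (SD, n = 3; adjusted p = 0.24 with edgeR and 0.0126 with DESeq2). Mx2, a GTPase with antiviral activity named outside the rule, was at 1.76 ± 0.738 and 3.62 ± 0.965 CPM, with the largest log2 fold change of the list, 1.04, against 2.60 for Xaf1. Ifngr2, an interferon-gamma receptor chain, was at 33.8 ± 1.74 and 29.0 ± 0.888 CPM (adjusted p = 0.367, edgeR). The transcription factor gene Irf1, named outside the rule, had a log2 fold change of -0.01. With the term for Xist reads the list's median was 0.05.

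Library by library, Xaf1 and the interferon list had the same order except for WT replicate 3 and CD103KO replicate 1. The list's mean log2 level, relative to the mean of the 6 libraries and with 0.5 CPM added, was -0.20, -0.37 and 0.09 in the WT libraries. In the CD103KO libraries it was -0.06, 0.30 and 0.24. Within WT both were lowest in replicate 2 and highest in replicate 3, and within CD103KO both were lowest in replicate 1 and highest in replicate 2. Between the groups, the list was lower in CD103KO replicate 1 than in WT replicate 3, for 22 of its 30 genes, with a median log2 difference of -0.15. This pair is the list's lowest CD103KO and highest WT library, and in every other pair the list was higher in CD103KO. In the same pair Xaf1 was 4.12-fold higher in CD103KO, and the largest ratio among the 30 genes was 1.06 (Ifnar2, a receptor chain). Within WT, Xaf1 ranged 1.46-fold from replicate 2 to replicate 3. The part of interferon signalling in the difference of Xaf1 was not tested.

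**Figure D4:**
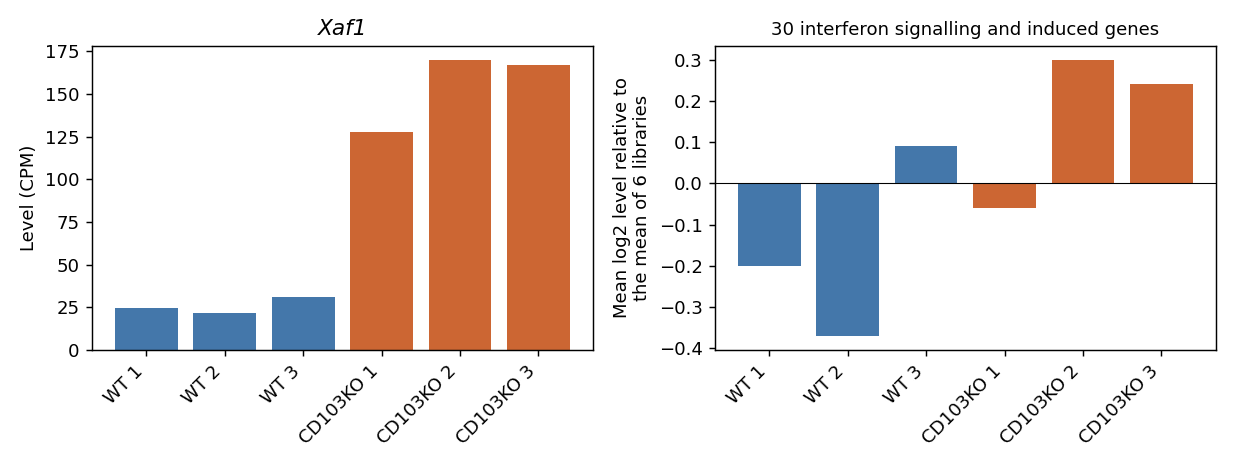
Left, level of Xaf1 in CPM in each library; right, mean log2 level of 30 interferon signalling and induced genes in each library, relative to the mean of the 6 libraries. WT replicate 3 (0.09) lies above CD103KO replicate 1 (-0.06) in the right panel, while Xaf1 is at 31.1 CPM in the first and 128 CPM in the second. In every other pair of a WT and a CD103KO library, the CD103KO library is the higher in both panels.

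The rest of the pathway was examined through 7 lists, the interferon list among them, which together held 133 tested genes besides the members. With edgeR 0 of the 133 passed, where 0.223% of all tested genes did. An unadjusted p under 0.05 was found for 13 higher and 9 lower genes, against 4.53% and 4.2% of all tested genes. Of the 13, 11 were in the interferon list. Limma-voom called 0, and DESeq2 called 5 (Eif2ak2, Mx2, Ifi44, Tnfaip3 and Nfkbia), where it called 0.822% of its tested genes. The counts of each list below stand against these same shares. Among other IAP family genes, 3 of 6 had enough counts to be tested, and 0 of the 3 passed with edgeR (median 0.08, and -0.02 with the term for Xist reads), 0 at an unadjusted p under 0.05 and 0 with DESeq2. Birc5, which encodes the mitotic IAP protein survivin, was at 2.29 ± 0.157 CPM in WT against 2.85 ± 0.699 CPM in CD103KO, with CD103KO replicate 3 the highest at 3.65 CPM. Naip2, an inflammasome sensor gene, was at 3.70 ± 0.293 and 3.93 ± 0.338 CPM. Reads of Naip2 and its related paralogs may be split uncertainly, which was not tested. Birc7 was at 0 in all 6 libraries.

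Of the caspase and apoptosome genes, only some encode targets of the IAP proteins. Over the 21 tested genes of this list the median log2 fold change was 0.03 (0.00 with the term for Xist reads). None passed with edgeR (0 of 21; unadjusted p under 0.05 for 1 higher and 1 lower gene; 0 with DESeq2). Casp9, the initiator caspase of the apoptosome and a known target of XIAP, was named for that role and not by the naming rule. Its log2 fold change was 0.02 (SE 0.08). It was at 15.9 CPM in each WT library and at 18.4, 15.2 and 15.1 CPM in CD103KO. Casp1, the inflammatory caspase, was at 1.40, 1.23 and 1.57 CPM in WT against 0.667, 0.807 and 0.886 CPM in CD103KO, without overlap, but its log2 fold change of -0.83 (SE 0.20) did not pass (adjusted p = 0.28, edgeR). Casp2 was at 66.7 and 70.8 CPM on average, which did not pass (log2 fold change 0.09, SE 0.04; edgeR, adjusted p = 0.561).

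Regulators and partners of IAP proteins, such as ubiquitin ligases and deubiquitinases that act on them, had a median of 0.03 over 23 tested genes (0.01 with the term for Xist reads). With edgeR 0 passed (unadjusted p under 0.05 for 1 lower gene; 0 with DESeq2). The ubiquitin ligase gene Siah1a was at 39.0 ± 3.23 CPM in WT against 33.4 ± 0.709 CPM in CD103KO (adjusted p = 0.432, edgeR). The mitochondrial ligase gene Mul1 was at 16.7 ± 0.133 and 15.4 ± 0.391 CPM (adjusted p = 0.616, edgeR).

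Genes of the TNF receptor complexes in which cIAP proteins work had a median of -0.03 over 28 tested genes (0.02 with the term for Xist reads), with 0 passing in edgeR, an unadjusted p under 0.05 for 2 lower genes, and 1 called by DESeq2. That gene, Tnfaip3, which encodes the ubiquitin-editing inhibitor A20, was at 50.5, 51.0 and 53.6 CPM in WT against 43.4, 39.5 and 40.4 CPM in CD103KO. The groups did not overlap, and the log2 fold change was -0.33 (SE 0.05; adjusted p = 0.0724 with edgeR and 0.00011 with DESeq2). Traf1, an adaptor that binds cIAP proteins, was at 76.1 ± 1.56 and 68.7 ± 5.83 CPM (adjusted p = 0.52, edgeR). Its partners Traf2 and Traf3, named outside the rule, had log2 fold changes of 0.02 and -0.01.

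A list of NF-kappa B genes, made for the non-canonical arm that cIAP proteins restrain but also holding Nfkb1, Rela, Nfkbia and Bcl3 of the canonical arm and its regulators, had negative log2 fold changes in 11 of 14 tested genes. Its median was -0.04, against -0.0025 over all tested genes, and -0.12 with the term for Xist reads. With edgeR 0 passed, and DESeq2 called Nfkbia. The unadjusted p was under 0.05 for 4 lower genes and 1 higher gene, where it was for 4.2% and 4.53% of all tested genes. Nfkbia, the inhibitor of NF-kappa B, was at 104, 99.4 and 103 CPM in WT against 86.7, 91.0 and 90.1 CPM in CD103KO (adjusted p = 0.15 with edgeR and 0.0303 with DESeq2). Relb, the partner subunit of this arm, was at 36.1 ± 1.62 and 31.3 ± 0.709 CPM, without overlap (adjusted p = 0.369, edgeR). Map3k14, the kinase NIK that cIAP proteins help degrade, named outside the rule, was at 83.0 ± 1.04 and 88.3 ± 2.79 CPM, without overlap (adjusted p = 0.566, edgeR).

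**Figure D5:**
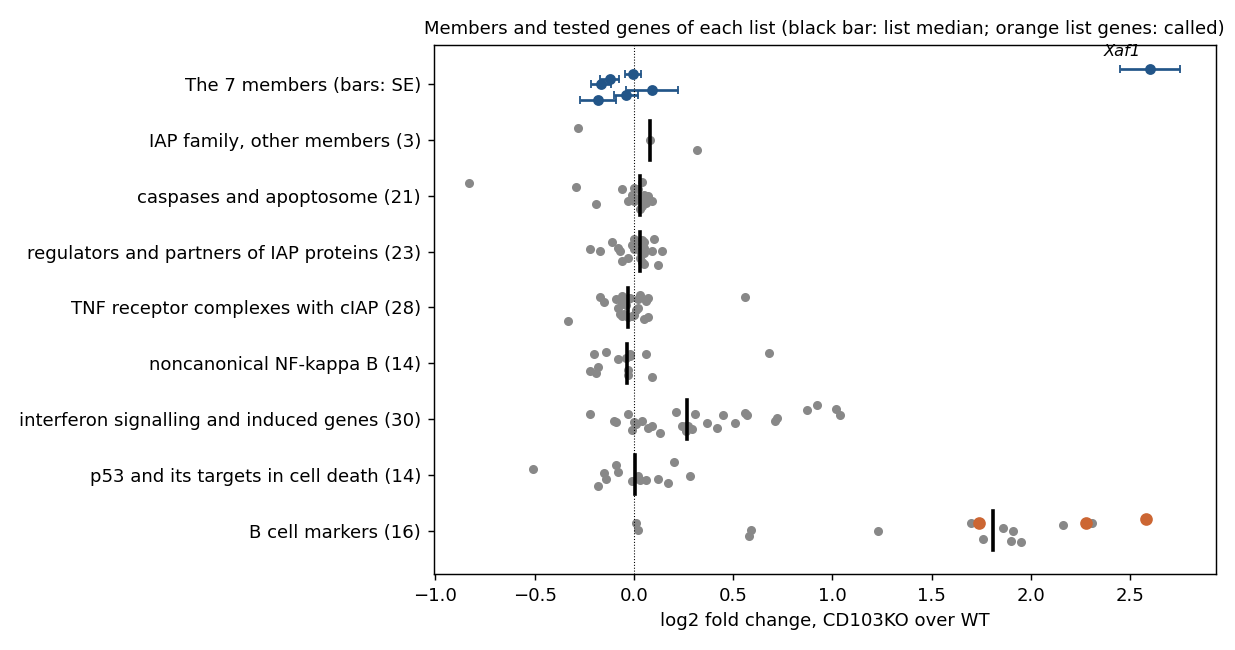
Log2 fold change of the 7 members with their SE (blue, top row) and of the tested genes of each pathway list and of the B cell markers (number tested in brackets), with black bars for list medians and called list genes in orange. Xaf1 lies at 2.60, the other members lie between -0.18 and 0.09, the pathway lists hold no called gene, and the B cell markers hold 3.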

How the data were processed

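Expected counts of each gene in the 6 libraries, estimated from reads and not scaled, were deposited by the authors in 1 table. The submitters' processing notes name STAR 2.7.0f, RSEM, cutadapt 1.18 and bcl2fastq 2.20, and the builds GRCm38 and mm10. The version of RSEM and its strand setting were not given in the sources used here. Of the values, 6.48% were not whole (tolerance 1e-06), and all were rounded before testing. All 55450 gene identifiers matched GENCODE M21 (GRCm38), which gave coordinates and lengths.

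CD103KO was compared with WT in edgeR 4.0.16 (R 4.3.3): filterByExpr (minimum count 10), TMM, quasi-likelihood F test on group, Benjamini-Hochberg adjustment over 13470 genes at 0.05. The standard error is the log2 fold change over the square root of F. Transcripts were compared with BLAST 2.17.0 (at least 90% identity). The test was tested on simulated data. Replicate pairs differed by chi-square over degrees of freedom of 12.7 to 26.4, so none was counted as a repeated library.

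The values of 1 called gene outside the lists and of some list genes are not reported here, though counts include them. The members, lists, tests and alternatives were chosen with earlier results of these data known. Named genes were the members, Itgae, per list up to 3 called genes or else the 2 with the smallest p among those averaging at least 1 CPM, called genes within 1 Mb of Xaf1, the nearest tested genes of each member, and the 5 genes nearest to Xaf1 in profile. Alternatives were other scaling factors and filters, DESeq2 1.42.0, limma-voom (limma 3.58.1), unrounded counts, the replicate block, the Xist term, each library left out, other windows and other lengths. Plots used matplotlib 3.10.9.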

Additional observations from a re-analysis of the deposited data

How the results depend on the processing

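Over 15 alternatives the log2 fold change of Xaf1 stayed between 2.32 (the term for Xist reads) and 2.77, and with each library left out between 2.48 and 2.77. Those of Birc2, Birc3, Diablo and Htra2 stayed negative (-0.16 to -0.11, -0.21 to -0.14, -0.10 to -0.01 and -0.24 to -0.12), and Xiap stayed between -0.03 and 0.02. Birc6 was -0.16 with the term for Xist reads and -0.03 to 0.24 with each library left out. The number of called genes, 30, was 112 with no filter, 128 with DESeq2, 15 with the term for Xist reads and 19 to 59 with each library left out (52 without WT replicate 3, 59 without CD103KO replicate 1, 19 without CD103KO replicate 2). Called pathway genes, 0, were 5 with no filter, 5 with DESeq2 and 0 to 2 with each library left out (Bst2 and Ifi27l2a without WT replicate 3, Tnfaip3 without CD103KO replicate 1). Called genes within 1 Mb of Xaf1, 1, were 2 with no filter or DESeq2 (Haspin added), and 0 and 5 in windows of 0.5 and 2 Mb. Called markers, 3, were 10 with no filter, 8 with DESeq2 and 2 to 3 with each library left out. Their number fell with the term for Xist reads, a fit whose WT side rests on replicate 3. The median of the B cell marker list, 1.81, was 1.44 with the term for Xist reads. The cause of these changes was not tested. The mean ratio of Xaf1 to Xiap per length, 0.547 in WT and 3.32 in CD103KO, was 3.91 in CD103KO with mean transcript lengths, and 0.713 and 4.33 with the longest.

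Same-numbered WT and CD103KO samples did not deviate together (correlations of -0.199, -0.005 and -0.03). With so few libraries per group, and Xist reads differing within WT only, this cannot exclude a pairing by number. With the replicate number as a block, 24 genes were called in all, 0 of them in the pathway lists, and the log2 fold change of Xaf1 was 2.61. Counts per member were 618 to 25364 per library, and depth limits Htra2, the member with the fewest counts, most.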

Other observations

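Genes of the p53 pathway linked to cell death, a further route on which XAF1 is known to act, had a median log2 fold change of 0.01 over 14 tested genes (0.06 with the term for Xist reads). With edgeR 0 passed, 0 had an unadjusted p under 0.05, and DESeq2 called 0. Sesn1, a stress-induced regulator of growth signalling, was at 90.4 ± 11.6 CPM in WT against 79.8 ± 5.85 CPM in CD103KO (adjusted p = 0.624, edgeR). Bbc3, which encodes the death-promoting protein PUMA, was at 11.3 ± 0.385 and 10.3 ± 0.565 CPM, without overlap (adjusted p = 0.632, edgeR).

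Among tested genes with a mean of at least 1 CPM, the 5 whose log2 profile over the 6 libraries lay nearest to that of Xaf1 were Trim16, Fbxw10, Ms4a1, Cd79a and Zfp286, with root mean square differences of 0.34, 0.46, 0.65, 0.68 and 0.82. Profiles were taken after adding 0.5 CPM, which narrows the differences of low genes such as Trim16, whose fitted log2 fold change was 7.53 against 2.60 for Xaf1. Trim16, Fbxw10 and Zfp286 are on chromosome 11, as Xaf1 is, and Ms4a1 and Cd79a are B cell genes. Trim16 was at 0, 0.0104 and 0.0252 CPM in WT against 3.26, 2.00 and 2.30 CPM in CD103KO. Fbxw10 was at 1.35, 1.26 and 0.868 CPM in WT against 7.33, 6.47 and 5.17 CPM in CD103KO. Both were highest in CD103KO replicate 1, the library in which Xaf1 was lowest within its group. No interferon list gene was among the 5. Profiles were centred but not scaled, so the ranking depends on the size of the difference between the groups. The largest log2 fold change of the interferon list was 1.04 (Mx2), so nothing is read from that absence.

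Among NF-kappa B list genes outside the naming rule, chosen after their values were seen, Bcl3 was at 22.6 ± 0.362 CPM in WT against 19.9 ± 0.553 CPM in CD103KO (adjusted p = 0.433, edgeR), and Nfkb2 at 60.9 ± 4.23 and 55.4 ± 2.26 CPM (adjusted p = 0.563, edgeR). Neither passed.

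Apart from Aup1, which overlaps Htra2, the following copies and overlapping genes had few or no counts. Gm17791, a pseudogene 91.8% identical to Xiap over 1504 bases, had 0 counts in all libraries. Gm7019, 99.2% identical to Birc3 over 369 bases, averaged 0.0871 CPM in WT against 0.0606 CPM in CD103KO. Gm49027, 99.5% identical to Diablo over 1204 bases, averaged 0.0312 and 0.022 CPM.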
